A study of Mus musculus with 24 samples.

Results

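The 9 genes described here present antigen on MHC class II or control that presentation: H2-Aa, H2-Ab1, H2-Eb1, H2-Oa, H2-Ob, H2-DMa, H2-DMb1, Ciita and Cd74. They were chosen by name, as the probes whose gene name in the scanner files is one of the 9. That gave 16 probes for 9 of the 28104 genes on the array. All 9 genes passed the filter on signal and were tested with 20555 genes in all, H2-Ob only through the Nrf2-null mixed reflux group.

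RNA came from the oesophagus of 12-week-old male C57BL/6J mice, either wild type or Nrf2-null (Nrf2-/-, without the transcription factor that Nfe2l2 encodes). Both genotypes were studied with no reflux and with gastric, duodenal or mixed reflux lasting 4 weeks, which makes 8 groups of 3 arrays. Every value is a log2 ratio of oesophageal RNA (Cy5) to a reference RNA pooled from 11 mouse cell lines (Cy3), so 1 unit is a doubling and a level says how a gene stands against that reference. Arrays of one group are biological replicates according to the labels, which name whole oesophagus as the tissue of 7 groups and oesophageal epithelium as that of Nrf2-null mixed reflux. The 3 arrays of that last group differed by less than repeat spots of 1 array do (variance ratio 0.71 to 0.87, against 1.39 to 38.4 for the 21 pairs within other groups) and were counted as 1 sample, which left 22 samples. RNA of whole tissue does not tell more cells of a type from more RNA per cell.

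The arrays were unequal in ways that touch these genes. Median Cy5 signal ran from 81.8 to 249 units, and the scanner software marked 13% and 11.8% of spots as outliers on wild type without reflux replicates 1 and 2, against at most 0.659% elsewhere. Cd74 was therefore measured on 1 array of that group and H2-Ab1 on 2. The arrays were scanned on 3 days. Wild type without reflux fell on day 1 (replicates 1 and 2) and day 2 (replicate 3), wild type with gastric reflux on day 2, Nrf2-null without reflux on day 2 (replicates 1 and 2) and day 3 (replicate 3), and all other groups on day 3. The 2 Nfe2l2 probes that start at bases 2068 and 2214 had medians of 1.96 and 1.93 in wild type and of -3.58 and -6.63 in Nrf2-null arrays, while the probe at base 578 had medians of -1.06 and -1.15. Of 10 squamous epithelium markers, 10 passed the filter on signal.

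MHC class II molecules are pairs of an alpha and a beta chain that show peptides from engulfed proteins to CD4+ T cells. They are made mainly by dendritic cells, macrophages and B cells, and interferon-gamma can switch them on in other cells, epithelium included. Cd74, the invariant chain, guards the groove until the molecule reaches the endosome, where H2-DM loads peptides and H2-DO restrains H2-DM. Ciita, the class II transactivator, does not bind DNA itself but is recruited to proteins that sit on the X and Y boxes of class II promoters.

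The RefSeq promoter table (GRCm38.p6) held 7 promoters of 6 of the 9 genes. The stretches from 130 to 31 bases before the start are shown for 5 of them, because they hold a match to at least 1 of the motifs searched. Capitals mark 2 motifs, each searched on both strands in the 250 bases before the start: TGATTGG, the core of the Y box, and, as a core of the X box, AAC followed by any 2 bases and then ATGATG. The 2 do not overlap.
H2-Aa (chr17:34287854-34287953, minus strand): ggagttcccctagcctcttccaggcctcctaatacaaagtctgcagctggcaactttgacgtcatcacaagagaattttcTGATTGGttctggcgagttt
H2-Eb1 (chr17:34305737-34305836, plus strand): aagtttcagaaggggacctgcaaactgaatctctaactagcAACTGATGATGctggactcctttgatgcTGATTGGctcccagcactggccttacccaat
H2-Oa (chr17:34092249-34092348, plus strand): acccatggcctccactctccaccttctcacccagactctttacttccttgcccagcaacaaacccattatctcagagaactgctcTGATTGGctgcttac
H2-Ob (chr17:34238775-34238874, plus strand): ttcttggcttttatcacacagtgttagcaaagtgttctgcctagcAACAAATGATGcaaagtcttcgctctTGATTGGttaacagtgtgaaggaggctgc
H2-DMb1 (chr17:34153061-34153160, plus strand): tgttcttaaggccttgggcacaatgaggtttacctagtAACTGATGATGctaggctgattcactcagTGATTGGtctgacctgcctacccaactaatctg
The Y box core began between 63 and 45 bases before the start in these 5 promoters and was found in 7.23% of the 32851 promoters of the table. The X box core was found in H2-Eb1, H2-Ob and H2-DMb1 and in 0.119% of all promoters. Neither motif matched in the 2 promoters of H2-DMa. A match is a run of letters, and the arrays did not measure binding. Each box was searched in 1 form only, so a promoter without a match is not shown to lack that box.

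Ciita was lowest in wild-type oesophagus without reflux, at 0.26, 0.67 and 0.01 (mean 0.31 ± 0.33, SD, n = 3), and highest in wild type with duodenal reflux, at 2.71, 2.14 and 2.18 (mean 2.34 ± 0.32, SD, n = 3). These groups did not overlap. Between them lay wild type with gastric reflux (1.42, 0.51 and 0.76) and with mixed reflux (1.13, 2.11 and 1.77). Ciita levels in Nrf2-null mice were 0.80, 0.41 and 1.66 without reflux and 1.89, 1.60 and 2.31 with duodenal reflux, and these groups overlapped. With gastric reflux they were 0.84, 0.62 and 2.52, and with mixed reflux 1.46 as the mean of the 3 arrays. In the order of group means each of the 7 neighbouring pairs overlapped. The Ciita probe starts at base 3798 of the transcript (mm9 chr16:10526303-10526362).

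The alpha chain H2-Aa split the arrays within groups. Its level was 2.49, 2.98 and 2.20 in wild type without reflux and 4.87, 4.82 and 4.997 in wild type with duodenal reflux. In Nrf2-null mice it was 0.83, 4.62 and 5.49 with gastric reflux and 4.74, 0.69 and 5.35 with duodenal reflux. Replicate 1 of the first and replicate 2 of the second thus lay far under both other arrays of their groups. A second H2-Aa probe gave 1.02 and 0.99 on the same arrays. Nrf2-null mice without reflux had 3.00, 3.70 and 4.67, wild type with mixed reflux 2.98, 4.67 and 2.43, and wild type with gastric reflux 4.45, 4.18 and 4.10. Over the 8 groups the fit found no difference in H2-Aa (moderated F test of limma, adjusted p = 0.643).

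Both H2-Aa probes were low on those arrays. H2-Ab1, the beta chain that pairs with H2-Aa, has 4 probes. Their sequences are given with those of H2-Aa because the arrays differ by the probe's place in the message. The name gives the base of the transcript at which the probe starts, and coordinates are those of build mm9 in the files.
H2-Aa, base 227 (chr17:34421285-34421344): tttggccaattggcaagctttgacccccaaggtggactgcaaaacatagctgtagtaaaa
H2-Aa, base 454 (chr17:34420627-34420686): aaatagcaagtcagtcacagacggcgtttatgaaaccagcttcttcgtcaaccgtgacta
H2-Ab1, base 133 (not placed in the files): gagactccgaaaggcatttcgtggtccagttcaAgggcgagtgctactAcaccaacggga
H2-Ab1, base 196 (chr17:34401723-34401782): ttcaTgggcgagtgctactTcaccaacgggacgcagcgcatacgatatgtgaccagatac
H2-Ab1, base 559 (chr17:34404388-34404447): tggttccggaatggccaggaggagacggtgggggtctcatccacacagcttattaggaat
The probe at base 133 was designed on another messenger sequence and shares 31 overlapping bases with the one at base 196. Their letters differ at 2 of these, T5A and T20A, counted from the start of the base 196 probe with its base first, and capitals mark both. The last H2-Ab1 probe starts at base 888 (chr17:34406059-34406118), was the brightest and stands for the gene.

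On Nrf2-null gastric replicate 1 the H2-Ab1 probes read 0.08 at base 133, 0.24 at base 196, 2.46 at base 559 and 4.62 at base 888. Nrf2-null duodenal replicate 2 read -0.06, 0.22, 2.28 and 4.89 in the same order. Nrf2-null gastric replicate 3 read 4.12, 4.97, 5.25 and 3.96. On the first 2 of these arrays the base 133 probe was not well above background, nor was the base 196 probe on Nrf2-null duodenal replicate 2, so these readings are only bounds. The difference of base 888 over base 196 was 4.37 on Nrf2-null gastric replicate 1 and had a median of -0.01 over the 23 arrays with both probes. Wild type mixed replicates 1 and 3 read 1.57 and 2.28 at base 196, against 3.80 on replicate 2. The base 559 probe was printed as several spots per array, and these had an SD of 0.046 to 0.21 between them.

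**Figure D1:**
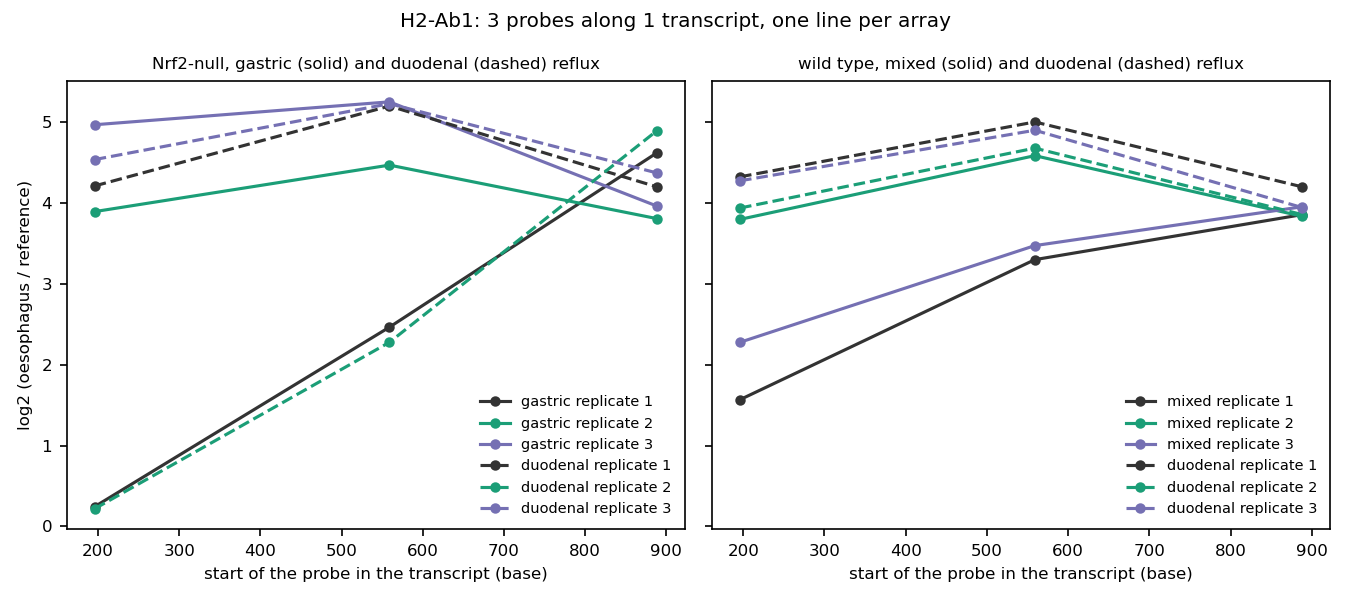
Level of H2-Ab1 (log2 ratio of oesophageal to reference RNA, vertical axis) at the probes that start at bases 196, 559 and 888 of the transcript (horizontal axis), 1 line per array, for 4 groups. Nrf2-null gastric replicate 1 and Nrf2-null duodenal replicate 2 read 0.24 and 0.22 at base 196 (the second not well above background) but 4.62 and 4.89 at base 888, above the other arrays of their groups.

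Late and early probes disagreed in the same direction for H2-DMb1, the beta chain of H2-DM. The probe at base 1219, which stands for the gene, read 2.94 and 3.23 on those 2 arrays, while the probe at base 620 read -0.52 and -0.54. Their gap was 3.46 and 3.77 there and had a median of 1.77 over the 24 arrays. The files list the base 620 probe under H2-DMb2 too, so which of these genes it read is uncertain. Over 4441 other transcripts with probes at least 300 bases apart, the median gap of late over early probe was 0.41 on wild type mixed replicate 1, 0.39 on Nrf2-null duodenal replicate 2 and 0.35 on Nrf2-null gastric replicate 1, and between -0.03 and 0.29 on the other 21 arrays. Their median Cy5 signals were 153, 85.3 and 88.2 units, against a median of 193 over all arrays. The part of RNA quality or labelling in this was not tested.

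**Figure D2:**
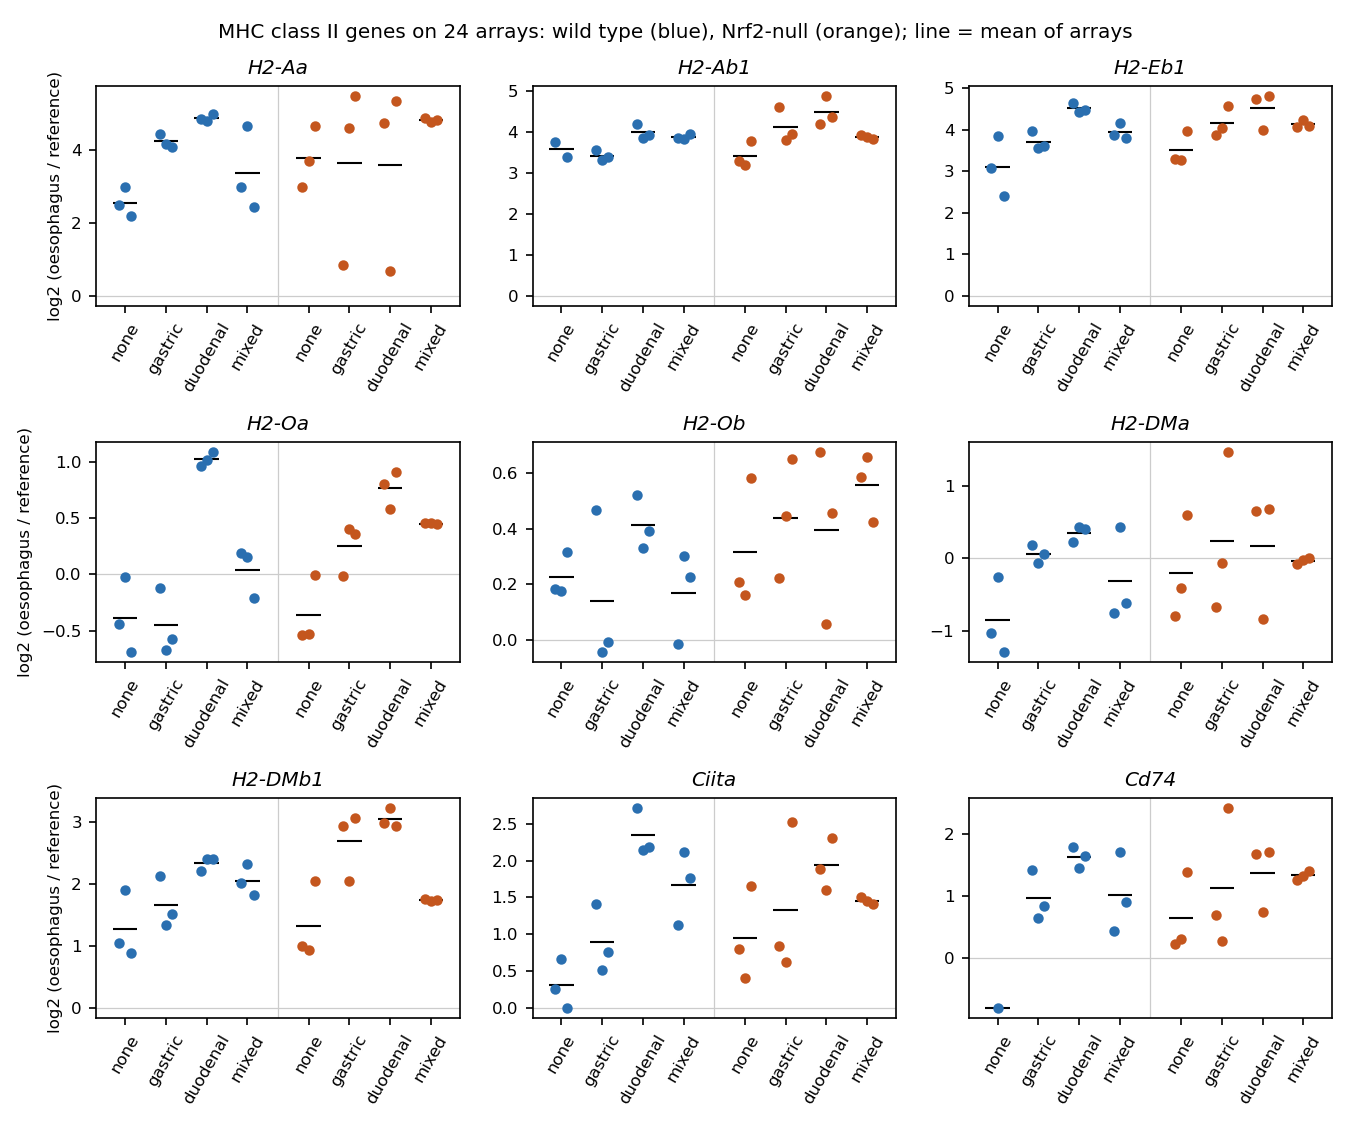
Levels of the 9 MHC class II genes (log2 ratio of oesophageal to reference RNA, vertical axis) in the 8 groups, 1 point per array and a line at the mean of the arrays; blue is wild type and orange Nrf2-null. H2-Oa in wild type with duodenal reflux lies between 0.97 and 1.09, above every other array, and H2-Aa falls to 0.83 and 0.69 on single Nrf2-null arrays.

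Each reflux type was compared with no reflux within a genotype. With duodenal reflux in wild type 5 of the 9 genes rose and none fell: Ciita, H2-Eb1, H2-Oa, H2-DMb1 and Cd74. Over all genes tested 7.24% rose and 3.04% fell. H2-Ob at background aside, every duodenal array lay above every array without reflux in each of these genes, a pattern that 33.1% of all genes showed. For Cd74 this rests on 1 array without reflux and for H2-Ab1 on 2. The median difference of the 9 genes, H2-Ob included, was 1.41, against 0.08 for all genes.

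H2-Oa, the alpha chain of H2-DO, rose from -0.44, -0.02 and -0.69 to 0.97, 1.02 and 1.09 (difference 1.41 ± 0.20, SE, adjusted p = 0.00039). Its second probe, at base 902, gave 1.87. Ciita rose by 2.03 ± 0.43 (SE, adjusted p = 0.00705). H2-Eb1, a beta chain, rose from 3.07, 3.85 and 2.39 to 4.65, 4.43 and 4.48 (1.41 ± 0.31, SE, adjusted p = 0.00851). The files name its probe H2-Eb1 and place it at chr17:34452050-34452511 but describe it as an I-A beta message of NOD mice, so its identity rests on the file's name and position. These calls of limma held with each array left out in turn.

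Cd74 rose by 2.42 ± 0.70 (SE, adjusted p = 0.038) over a single array without reflux, at -0.80, to 1.78, 1.46 and 1.64. The fit assumes that this single array varies like the samples of the other groups. With the spots marked as outliers kept, which brings back the other 2 control arrays, the difference was 1.83 (adjusted p = 0.0217). H2-DMb1 rose from 1.04, 1.90 and 0.88 to 2.21, 2.41 and 2.40 (1.06 ± 0.33, SE, adjusted p = 0.0484), while its base 620 probe did not pass (0.95, adjusted p = 0.23). Its call was lost in 14 of 24 fits with 1 array left out, and that of Cd74 in 5 of 23. Median centring in place of loess also ended the Cd74 call (2.49, adjusted p = 0.135). Leaving out wild type without reflux replicates 1 or 3, or any of the 3 duodenal arrays, ended the H2-DMb1 call (0.87 to 1.13, adjusted p 0.0873 to 0.16). The other 9 losses came from arrays outside the comparison, with the difference at 1.06 and an adjusted p of 0.0516 to 0.0598. These arrays were wild type gastric replicates 2 and 3 and the 3 wild type mixed arrays. The rest were Nrf2-null replicates 1 and 2 without reflux and Nrf2-null duodenal replicates 1 and 3. The parts of the pooled spread and of the adjustment over all genes in these losses were not tested. For Cd74, leaving out replicates 1 or 2 without reflux or any duodenal array ended the call with the difference at 2.35 to 2.51 (adjusted p 0.0516 to 0.0925). Replicates 1 and 2 hold no Cd74 value, so the difference without them was unchanged at 2.42.

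The 4 other genes did not pass the test. H2-Aa differed by 2.34 ± 1.08 (SE, adjusted p = 0.19), H2-DMa, the alpha chain of H2-DM, by 1.21 ± 0.51 (adjusted p = 0.148) and H2-Ab1 by 0.41 ± 0.25 (adjusted p = 0.328), all in limma's fit. The other H2-Ab1 probes differed by 1.61, 2.12 and 1.52 at bases 133, 196 and 559, and none passed. H2-Ob, the beta chain of H2-DO, was not well above background in either group, so no difference is given. Its brighter probe was well above background on 7 of 24 arrays, 3 of them those of Nrf2-null mixed reflux, and its other probe on 0.

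The wild-type arrays with and without duodenal reflux share no scan day. With scan day as a block, fitted through the groups that span days, 0 of the 9 genes and 16 of 20551 genes passed: H2-Eb1 differed by 1.42, H2-Oa by 1.19, Cd74 by 1.30, Ciita by 1.28 and H2-DMb1 by 0.36 (adjusted p 0.607 to 1.00). Without the 3 arrays of largest gap between late and early probes, a choice made after seeing the data, 7 of the 9 genes passed. H2-Aa and H2-DMa were the added ones. The share of all genes that passed in that fit is not given here, so this count has no background beside it. Those 3 arrays lie outside this comparison. The differences of H2-Aa and H2-DMa were therefore unchanged at 2.34 and 1.21. The parts of the pooled spread and of the adjustment over all genes in their calls were not tested.

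In Nrf2-null mice 4 of the 9 genes rose with duodenal reflux and none fell, beside 13.5% and 6.3% of all genes. The 4 were H2-Ab1, H2-Eb1, H2-Oa and H2-DMb1, and in these every duodenal array lay above every array without reflux, as in 27.5% of all genes. The median difference of the 9 genes, H2-Ob at background included, was 0.98 and that of all genes 0.08.

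H2-Oa went from -0.54, -0.53 and -0.01 to 0.81, 0.58 and 0.91 (difference 1.13 ± 0.20, SE, adjusted p = 0.00119). H2-DMb1 went from 0.99, 0.93 and 2.06 to 2.98, 3.23 and 2.93 (1.72 ± 0.33, SE, adjusted p = 0.00183). Replicate 3 without reflux was the highest of its group in both. H2-Ab1 went from 3.29, 3.19 and 3.79 to 4.20, 4.89 and 4.37 (1.06 ± 0.22, SE, adjusted p = 0.00366). H2-Eb1 went from 3.29, 3.26 and 3.98 to 4.74, 3.98 and 4.81 (1.00 ± 0.31, SE, adjusted p = 0.0321), and its call was lost on leaving out replicates 1 or 2 without reflux or 1 or 3 with duodenal reflux (0.85 to 0.89, adjusted p 0.097 to 0.129).

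Of these 4 calls, 2 were not shared by the gene's other probes. H2-Ab1 differed by -0.16, 0.38 and 0.50 at bases 133, 196 and 559 and H2-DMb1 by 0.45 at base 620, none past the threshold, while H2-Oa differed by 1.48 at base 902 and passed. Ciita (0.98 ± 0.43, adjusted p = 0.121), Cd74 (0.74 ± 0.49, adjusted p = 0.312), H2-DMa (0.37 ± 0.51) and H2-Aa (-0.20 ± 1.08) did not pass, and H2-Ob was well above background on 0 arrays without reflux and 2 with duodenal reflux. With median centring H2-DMb1 passed alone, and H2-Ab1, H2-Eb1 and H2-Oa differed by 0.61, 0.45 and 0.64 (adjusted p 0.072 to 0.449). Nrf2-null without reflux replicate 3 was the only array of its group scanned on the day of the duodenal arrays. Against it alone the differences were 0.70 for H2-Ab1, 0.53 for H2-Eb1, 0.77 for H2-Oa and 0.99 for H2-DMb1 (adjusted p 0.16 to 0.524, with the spread of the other groups assumed for that single array), and 0 of 9 genes passed with scan day as a block.

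**Figure D3:**
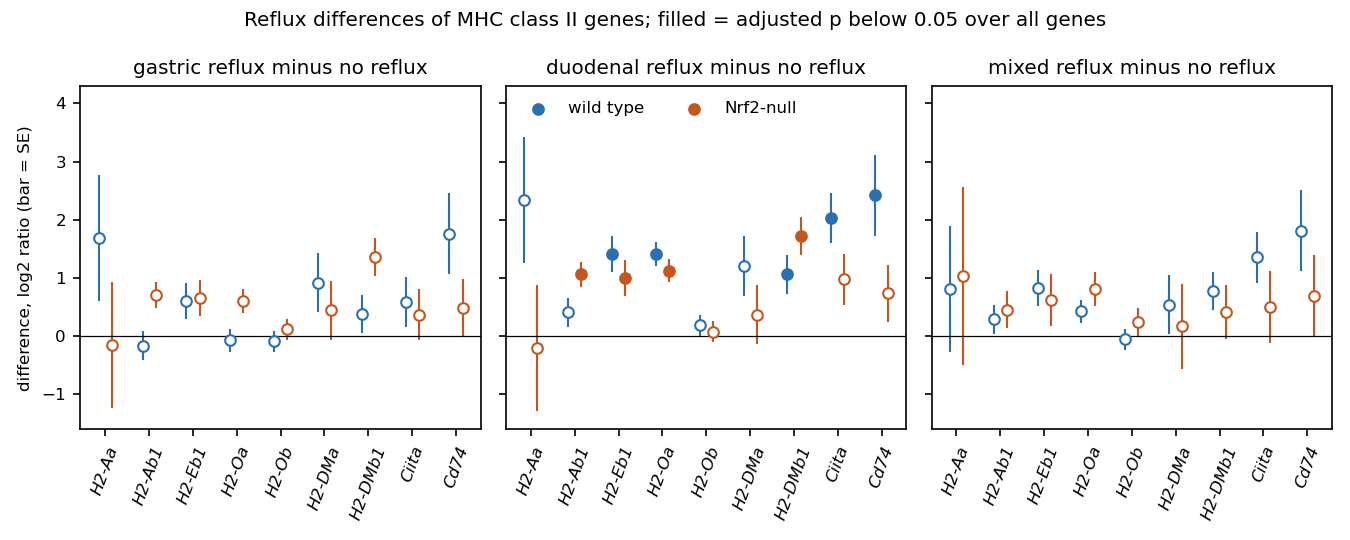
Difference of each reflux type from no reflux (log2 ratio, vertical axis; bars are the SE of the fit) for the 9 genes in wild type (blue) and Nrf2-null mice (orange); filled points have an adjusted p below 0.05 over all genes. Filled points appear under duodenal reflux only, with H2-Oa, H2-Eb1 and H2-DMb1 filled in both genotypes.

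Gastric and mixed reflux moved no member past the threshold in either genotype. Over all genes 4.14% passed for gastric reflux in wild type and 0.584% in Nrf2-null mice, and 0.0535% and 4.76% for mixed reflux, with both directions counted. Unadjusted p fell below 0.05 for 1 and 3 of the 9 genes under gastric reflux and for 5 and 1 under mixed reflux. The largest wild-type values under gastric reflux were those of Cd74 (1.76 ± 0.70, adjusted p = 0.158) and H2-Aa (1.69 ± 1.08). Under mixed reflux Cd74 differed by 1.81 ± 0.70 and Ciita by 1.36 ± 0.43 in wild type (adjusted p = 0.354 and 0.274). In Nrf2-null mice H2-DMb1 differed by 1.36 ± 0.33 under gastric reflux (adjusted p = 0.0676), and the call was gained on leaving out replicate 2 of that group or replicate 3 without reflux. Nrf2-null mixed reflux entered as 1 sample, labelled epithelium, against whole oesophagus without reflux. Its differences are less precise: the SE of H2-Aa was 1.53, against 1.08 for gastric reflux in Nrf2-null mice.

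Nrf2-null and wild-type mice were compared within each condition, the contrast that the design names, which asks what depends on Nrf2. Without reflux, under duodenal reflux and under mixed reflux no member passed, against 0.17%, 1.88% and 3.45% of all genes in both directions, and no unadjusted p was below 0.05 except for 2 genes under duodenal reflux. The mean over the 4 conditions gave 0 of 9, against 8.17%. H2-Ob aside, its differences ran from 0.11 for Ciita to 0.42 for Cd74, whose wild-type mean without reflux is 1 array. The median of the 9, H2-Ob at background included, was 0.23, and that of all genes 0.03. Under mixed reflux the Nrf2-null side was 1 sample, labelled epithelium, against whole oesophagus in wild type.

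Under gastric reflux H2-Ab1, H2-Oa and H2-DMb1 were higher in Nrf2-null mice and none was lower, beside 10.5% and 7.18% of all genes. H2-Oa was at -0.12, -0.67 and -0.57 in wild type and at -0.02, 0.41 and 0.36 in Nrf2-null mice (0.70 ± 0.20, SE, adjusted p = 0.0259), with no overlap. Its base 902 probe also passed (0.83). H2-Ab1 was at 3.56, 3.33 and 3.39 and at 4.62, 3.81 and 3.96 (0.70 ± 0.22, SE, adjusted p = 0.0398). H2-DMb1 was at 2.13, 1.34 and 1.51 and at 2.94, 2.05 and 3.07 (1.03 ± 0.33, SE, adjusted p = 0.0403), with overlap.

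Probes nearer the start did not pass for 2 of these genes: H2-Ab1 differed by -0.30, -0.49 and 0.17 at bases 133, 196 and 559 and H2-DMb1 by 0.52 at base 620. Without Nrf2-null gastric replicate 1, H2-Ab1 differed by 0.46 (adjusted p = 0.116) and H2-DMb1 by 0.90 (adjusted p = 0.0798), while H2-Oa kept its call. Leaving out wild type gastric replicates 2 or 3 ended all 3 calls (0.60 to 0.95, adjusted p 0.0993 to 0.16), and so did median centring (0.39 to 0.67). H2-Oa also lost its call without Nrf2-null gastric replicates 2 (0.63) or 3 (0.65), H2-DMb1 without Nrf2-null gastric replicate 3 (0.84) or any wild type duodenal array, and H2-Ab1 without wild type duodenal replicate 3. The wild type duodenal arrays lie outside this comparison, and without them the differences were unchanged at 1.03 and 0.70 (adjusted p 0.0509 to 0.0525). Scan day and genotype coincide here, and with scan day as a block the differences were 0.16 for H2-Ab1, 0.17 for H2-Oa and -0.064 for H2-DMb1, with 9 of 20555 genes past the threshold. The median of all genes stood 0.11 above 0 in this comparison.

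Whether the genotype difference depended on reflux was tested for each gene by an F test on the interaction. None of the 9 passed, against 4.26% of all genes. The smallest p was that of H2-Oa (unadjusted p = 0.0212, limma's adjusted p = 0.136). Across all 8 groups H2-Oa (adjusted p = 0.000235), H2-DMb1 (0.00485), H2-Eb1 (0.0218), Ciita (0.0309) and H2-Ab1 (0.0337) differed by limma's F test, against 25.6% of all genes. Without wild type replicates 1 or 3 without reflux, 2 or 3 with gastric reflux or 3 with duodenal reflux, or Nrf2-null duodenal replicate 3, 3 of the 9 remained past the threshold.

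The order of the group means was close for most genes. H2-Aa, H2-Eb1, H2-DMa, Ciita and Cd74 were lowest in wild type without reflux and highest in wild type with duodenal reflux. At the late probes that stand for them, H2-Ab1 and H2-DMb1 were highest in Nrf2-null mice with duodenal reflux. At bases 133, 196 and 559 H2-Ab1 was higher in wild type with duodenal reflux (means 3.03, 4.18 and 4.86, against 2.01, 2.99 and 4.23), and H2-DMb1 at base 620 was highest in Nrf2-null mice with gastric reflux (0.55). Of the 7 neighbouring pairs in that order, 4 overlapped for H2-Oa, 6 each for H2-Aa, H2-Ab1, H2-DMb1 and Cd74, and 7 each for H2-Eb1, H2-DMa, H2-Ob and Ciita. H2-Ob aside, the span between lowest and highest mean ran from 1.06 for H2-Ab1 to 2.42 for Cd74.

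A list of 28 other genes of the pathway covers proteases, class II regulators, interferon-gamma signalling and costimulators. H2-Ea and H2-Eb2 were well above background on no array and H2-DMb2 on 3, and the other 25 were tested. With duodenal reflux 3 rose and 1 fell in wild type, and 5 rose and 2 fell in Nrf2-null mice. Over all genes 7.24% rose and 3.04% fell in wild type and 13.5% and 6.3% in Nrf2-null mice. Under gastric reflux 2 of the 25 were higher and 1 lower in Nrf2-null than in wild-type mice, beside 10.5% and 7.18% of all genes. Scan day and genotype coincide in that comparison. Under duodenal reflux 1 was higher in Nrf2-null mice and none lower, beside 1.88% of all genes in both directions. Lgmn, an endosomal protease, rose in both genotypes (1.03 ± 0.29, SE, adjusted p = 0.0321, and 1.16 ± 0.26, SE, adjusted p = 0.0056). Ctsd, an aspartic protease of the lysosome, rose in wild type by 0.90 ± 0.22 (SE, adjusted p = 0.016) over the 1 array without reflux that measured it, which is assumed to vary like the other groups.

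Among costimulators, Cd80, a ligand of CD28 on T cells, rose in wild type from -0.29, -0.18 and -0.19 to 1.24, 1.01 and 0.89 (adjusted p = 0.00845). Cd86, the other CD28 ligand, rose in Nrf2-null mice by 0.92 (adjusted p = 0.0364), as did Cd40 by 0.67 (adjusted p = 0.0489), and Cd86 was higher in Nrf2-null than in wild-type mice under gastric reflux (1.14, adjusted p = 0.0162). Regulators went both ways: Nfya, a subunit of the factor that binds the Y box, rose by 0.77 (adjusted p = 0.00613) and Ifngr1, a chain of the interferon-gamma receptor, by 0.85 (adjusted p = 0.0362) in Nrf2-null mice. Creb1, a factor of the X box, fell by 1.21 in wild type (adjusted p = 0.0226).

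Jak1, a kinase of that receptor, fell by 1.03 with duodenal reflux in Nrf2-null mice (adjusted p = 0.0084), and was lower by 1.24 in Nrf2-null mice under gastric reflux (difference -1.24, adjusted p = 0.0055). Marchf8, a ubiquitin ligase that removes class II from the surface, fell by 0.69 with duodenal reflux in Nrf2-null mice (adjusted p = 0.0043). Ifngr2, the other receptor chain, was higher in Nrf2-null mice under duodenal reflux (1.00 ± 0.19, SE, adjusted p = 0.0124). Ifng itself differed by 0.87 ± 0.55 in wild type and 0.22 ± 0.55 in Nrf2-null mice with duodenal reflux and passed in neither, and on Nrf2-null gastric replicate 3 it stood at 3.28, against 0.24 and 0.48 on the other arrays of the group. All these tests are limma's.

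Markers of other cells the tissue could hold were counted in the same fit. In wild type with duodenal reflux 5 of 8 leucocyte genes, 4 of 9 T-cell genes, 3 of 9 dendritic-cell genes, 1 of 7 B-cell genes and 2 of 15 macrophage genes rose, and 1 macrophage gene fell, beside 7.24% and 3.04% of all genes. In Nrf2-null mice the counts that rose were 6, 4, 3, 0 and 3, with none that fell, beside 13.5% and 6.3% of all genes. Ptprc, the common leucocyte antigen CD45, rose by 1.70 ± 0.49 in wild type (SE, adjusted p = 0.0341) and by 1.46 ± 0.49 in Nrf2-null mice (SE, adjusted p = 0.0432). Itgax, the integrin CD11c of dendritic cells and some macrophages, rose by 2.04 (adjusted p = 0.0014) and 1.74 (adjusted p = 0.0025), and Cd3d, a chain of the T-cell receptor complex, by 3.46 (adjusted p = 0.0014) and 2.62 (adjusted p = 0.0053), all in limma's fit.

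The mean level of the 8 leucocyte genes, each centred on its mean over arrays, was -1.08 to -0.37 in wild type without reflux and 0.39 to 0.42 with duodenal reflux, and -0.67 to -0.07 and 0.53 to 0.68 in Nrf2-null mice. For the 9 class II genes the same mean was -1.12 to -0.30 and 0.48 to 0.62 in wild type, and -0.67 to 0.24 and -0.18 to 0.78 in Nrf2-null mice. It leaves out genes without a value: Cd74 on wild type without reflux replicates 1 and 2, and H2-Ab1 on replicate 1. B-cell genes kept to -0.14 to 0.31 over all arrays, and Fcer2a, Pax5 and Fcrla did not pass the filter on signal. With duodenal reflux 7.24% of all genes rose in wild type and 13.5% in Nrf2-null mice. Beside these shares, 2 of 8 neutrophil genes rose in wild type and 6 in Nrf2-null mice, and of 15 interferon-gamma targets 1 and 3. Of 10 squamous epithelium genes 1 and 5 rose, and 1 fell in Nrf2-null mice, where 6.3% of all genes fell. Of 12 skeletal muscle genes 0 rose in both. The muscle genes nevertheless had median differences of 1.34 and 0.79, and their mean centred level was -1.81 to -0.77 without and -0.064 to 0.013 with duodenal reflux in wild type, and -0.83 to 0.079 and 0.30 to 0.90 in Nrf2-null mice, with no overlap. With that mean as a covariate 4 of the 9 class II genes rose in wild type, H2-DMb1 no longer passing (1.04, adjusted p = 0.059), and 4 in Nrf2-null mice. Of the 15 genes of class I presentation none passed in either duodenal comparison, with medians of 0.34 and 0.11. The part of these cells in the class II differences was not tested.

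**Figure D4:**
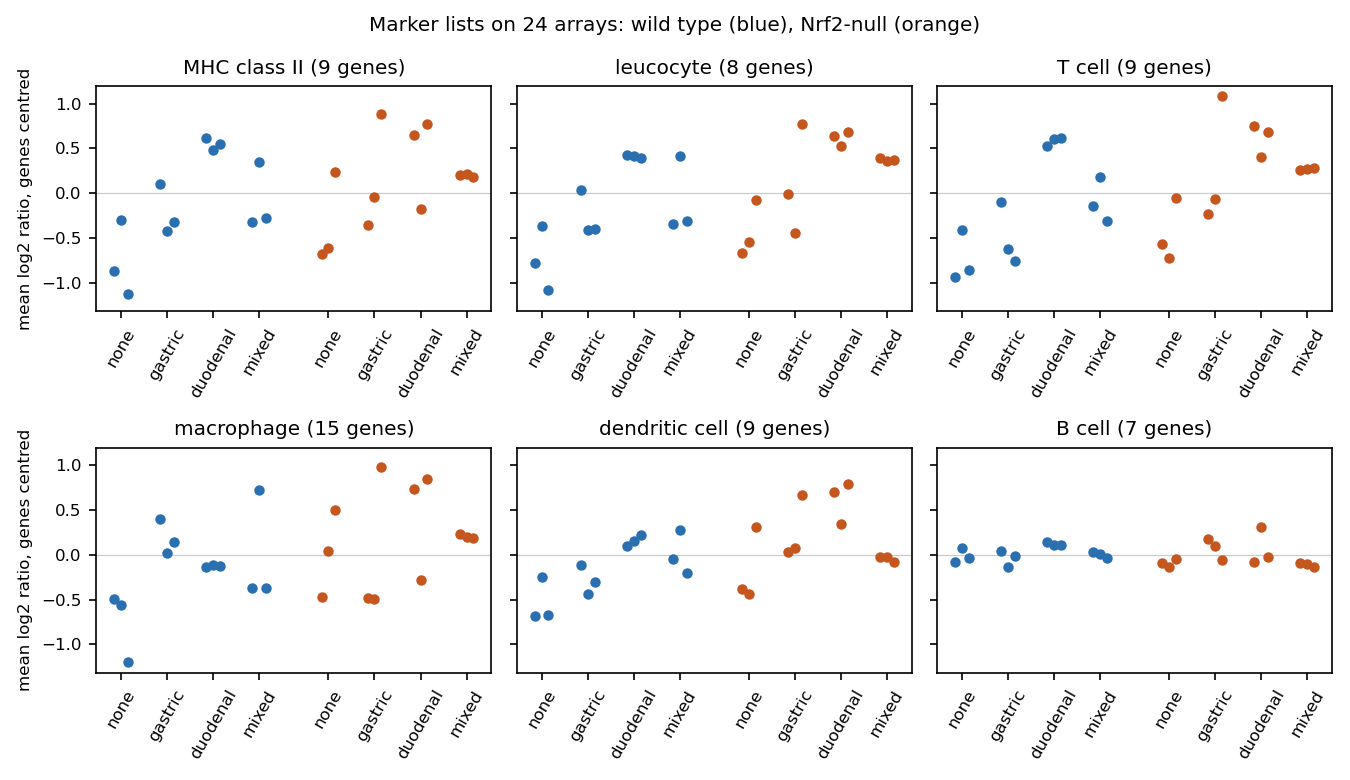
Mean log2 ratio of the 9 class II genes and of 5 marker lists, each gene centred on its mean over arrays (vertical axis), in the 8 groups. There is 1 point per array, over the genes with a value on it, and blue is wild type and orange Nrf2-null. Leucocyte genes lie at 0.39 to 0.42 in wild type with duodenal reflux against -1.08 to -0.37 without reflux, and B-cell genes stay between -0.14 and 0.31 on every array.

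Among 20404 other genes measured in at least 20 samples, those whose pattern was most like the mean of the 9 class II genes over the 22 samples included Bcl2a1b (Pearson r = 0.97), Epsti1 (0.96), Ms4a7 (0.94), Cd3g (0.94), Itgae (0.93), Slamf8 (0.93), Cd3d (0.93), Cxcr6 (0.93) and Dock10 (0.93). Cd3g and Cd3d are in the T-cell list, and the other genes named here are in none of the marker lists. The median r of the leucocyte list was 0.83, of the T-cell list 0.79 and of the macrophage list 0.70. Interferon-gamma targets had 0.54, the dendritic-cell list 0.52 and the pathway list 0.52. Neutrophil genes had 0.48, class I genes 0.45 and the B-cell list 0.32. Squamous epithelium and skeletal muscle genes each had 0.13. The members' own r to that mean ran from 0.46 for H2-Ab1 to 0.96 for H2-Eb1. Each member is part of the mean, which raises its r, so these are not comparable with the r of the lists. The samples share the reference, and arrays of a group share their treatment, so these r describe the samples and carry no test.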

How the data were processed

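Per the file headers, the deposited scanner files hold the mean and local background intensity of both dyes for 45018 spots per array, and the log10 ratio of Cy5 over Cy3 that the software computed. The headers name Agilent Feature Extraction 10.5.1.1 for wild type without reflux replicates 1 and 2 and 10.7.3.1 for the other arrays, and the submitters' processing notes name 9.1. The deposited value table holds log2 ratios normalised by the authors by a method that no source used here gives. They ran in the same direction as the software's ratios, and their scale was read from the slope.

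Intensities were corrected with normexp (limma 3.58.1 in R 4.3.3, offset 50, outlier-marked local backgrounds replaced by the array's median) and normalised by loess within arrays, with control spots at weight 0. Outlier-marked spots were left out and repeat spots averaged. The brightest probe stood for a gene, and genes entered the test if some group had a probe well above background (Cy5) on each of its arrays. A mean per group was fitted to 22 samples with lmFit and eBayes, two-sided, and p-values were adjusted by Benjamini-Hochberg over all genes (threshold 0.05). On simulated data for wild-type duodenal against no reflux over 20555 genes, 100 genes were changed by 1 unit and 100 by 2. The fit recovered 52% of the first and 89% of the second, with 9 false calls. The simulated noise was independent and held no scan-day effect, so these rates need not hold for the real arrays.

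All 9 members are named with every array; pathway genes are named where they passed, smallest adjusted p first, and the 10 genes of most like pattern by Pearson r, of which 1 is not reported here. Gene names and promoters are RefSeq's; probe positions are those of the file headers (mm9). The members and lists were chosen with earlier results of these data known. The number of arrays limits the precision. Alternatives are given in the closing section.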

Additional observations from a re-analysis of the deposited data

How the results depend on the processing

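Of the 99 differences of single members, 12 were called, and 19 alternatives and 24 fits with 1 array left out gave 4214 further values. Of these 4083 kept their call or lack of one, 99 lost a call, 27 gained one and 5 turned the sign of a called difference. Among the 4083, 188 changed sign where neither value was called. The 5 were H2-DMb1 under gastric reflux between genotypes with scan day as a fixed block (-0.064), H2-Ab1 in the same comparison with slide as a fixed block (-0.081) and with the probe nearest the transcript start (-0.30), H2-Eb1 with duodenal reflux in Nrf2-null mice with slide as a fixed block (-0.048) and H2-Ab1 there with the probe nearest the start (-0.16). 

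Counts of members called moved by over 1.5 times as follows. Between genotypes under gastric reflux (3 as reported) 0 were called with median centring, with scan day or slide as a fixed block, with slide as a random block and with only the groups compared, and 1 with local backgrounds as read, the mean over probes, the replicate block, the probe nearest the start, and without the 3 arrays of largest probe gap. For duodenal reflux in wild type (5) they were 0 with the scan day block and 3 with slide as a fixed or random block. For duodenal reflux in Nrf2-null mice (4) they were 0 with the scan day block and within scan days, 1 with median centring, and 2 with the slide block and the probe nearest the start. For any difference among groups (5) they were 1 with the scan day block, 2 with median centring and slide as a fixed block, and 3 with the mean over probes, slide as a random block, the 2 arrays of lowest Cy5 signal left out and the probe nearest the start. Where 0 were called as reported, local backgrounds as read gave 1 between genotypes without reflux, 1 for gastric and 2 for mixed reflux in wild type and 1 for the interaction. Slide as a fixed block gave 1 between genotypes without reflux, 2 under duodenal reflux, 1 for mixed reflux in wild type and 1 for the interaction. Only the groups compared gave 1 between genotypes under duodenal reflux and 1 for gastric reflux in wild type, Nrf2-null mixed reflux as 3 samples gave 1 for gastric and 1 for mixed reflux in Nrf2-null mice and 1 for the interaction, and leaving out the 3 arrays of largest probe gap gave 1 for the mean of conditions and 1 for gastric reflux in wild type. With 1 array left out, counts ran from 0 to 3 between genotypes under gastric reflux, from 3 to 5 for duodenal reflux in wild type and in Nrf2-null mice, from 0 to 1 for gastric reflux in Nrf2-null mice and from 3 to 6 for any difference. Smaller moves also ended calls. For duodenal reflux in wild type, H2-DMb1 was lost, leaving 4, with the scanner's log ratio, the series matrix values, no filter on dim probes, the mean over probes, the replicate block, the muscle covariate and the probe nearest the start, and median centring ended Cd74 while another member was gained. In Nrf2-null mice 3 were left with local backgrounds as read, slide as a random block, the replicate block and only the groups compared (all without H2-Eb1) and with the mean over probes (without H2-Ab1). Between genotypes under gastric reflux H2-Ab1 was lost with the series matrix values, which left 2, and with the scanner's log ratio, where another member was gained and the count stayed at 3. The causes were not tested.

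The replicate numbers did not pair the arrays: deviations of same-numbered arrays correlated at -0.65 to 0.57 (median 0.02, 63 pairs, 16 above 0.1), and the replicate block left 4 members called for duodenal reflux in wild type (H2-DMb1 lost, adjusted p = 0.0727), 3 in Nrf2-null mice (H2-Eb1 lost, adjusted p = 0.0504), 1 between genotypes under gastric reflux and 4 for any difference among groups. The probe nearest the start and the 3 arrays left out by probe gap were chosen after seeing the data. No scan day held both groups for gastric reflux between genotypes or for duodenal and mixed reflux in wild type, so these have no value within scan days.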
